A study of Mus musculus with 6 samples.

Results

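The genes described are those of the tumour necrosis factor (TNF) superfamily that carry a numbered Tnfsf (ligand) or Tnfrsf (receptor) symbol, 32 of the 55809 gene rows of the count tables. They are 20 receptor genes, 11 ligand genes and Tnfsf13os, a noncoding RNA on the opposite strand to Tnfsf13 that matches by its symbol and encodes no ligand. They were followed in mast cells sorted from the skin of C57BL6J mouse fetuses at embryonic day 18.5, as cells that carried CD45, CD117 (KIT) and ST2 and lacked F4/80 and CD64. The prenatal stress group came from dams restrained in tubes under bright light, 3 times a day for 30 minutes, over the last days of gestation. The control group came from dams left undisturbed. Each group had 3 libraries, each from a pool of 4 mice, and no other treatment or allele is given for either group. Male and female mice were used, with no sex named for a pool. How many dams or litters stand behind a pool is not given either. A p-value here weighs the difference between the groups against the spread among pools of a group. Whether those pools are independent units of the stress on the dams is not known.

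TNF superfamily ligands are mostly membrane-anchored proteins that assemble as trimers, and several can be shed into solution. Their receptors either recruit TRAF adaptors, which switch on NF-kB and kinase cascades, or carry a death domain that can lead to cell death. Mast cells are known as a source of TNF, which they can store in granules, and ligands such as LIGHT, 4-1BB ligand and OX40 ligand carry signals between immune cells.

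Of the 32 genes, 30 had at least 60 counts summed over the 6 libraries and were measured. Too low to measure were Tnfrsf13c, the receptor of BAFF, with 53 counts, and Tnfrsf11b, the soluble decoy osteoprotegerin, with 10. The measured gene nearest to this limit was Tnfsf4, with 68 counts. All 30 passed the low-count filter of the fit, and the 2 genes below 60 counts did not. Levels are in CPM, counts scaled to library size with TMM factors, as mean ± SD over n = 3 pools in a group. Each log2 fold change has a standard error (SE) beside it, and a positive value means a higher level after prenatal stress. Unless another fit is named, adjusted p-values come from edgeR's quasi-likelihood test over all 16716 genes tested, and a gene is said to be called, to rise or to fall where that value is below 0.05.

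After prenatal stress 3 of the 30 measured genes were higher and 0 were lower (edgeR). The ligand gene Tnfsf14 and the receptor genes Tnfrsf9 and Tnfrsf26 rose, and the other 27 did not pass. Over all genes tested, 6.19% were called, 4.34% higher and 1.85% lower, so 3 calls of 30 are a share not far from the background. By unadjusted p below 0.05, 12 of the 30 differed, 8 higher and 4 lower, where 24.8% of all genes did (13.3% higher and 11.6% lower). DESeq2 called 5 higher and 1 lower among the 25 to which it gave an adjusted p (Tnfrsf11a was the gene it called lower), where it called 12.4% of all genes, 7.95% higher and 4.49% lower. The limma-voom fit called 3 higher and 0 lower, where it called 5.96% of all genes. With the replicate number as a block 2 of the 30 passed, where 3.72% of all genes did. With library totals as the only scaling 2 were higher and 3 lower, where 12.5% of all genes were called and 9.16% were lower; the 3 lower ones were Tnfrsf11a, Tnfrsf13b and Tnfrsf14. Without a filter 5 of 32 were higher and 2 lower (Tnfrsf11a and Tnfsf18), where 6.60% of all genes were called, 3.84% higher and 2.77% lower. Leaving out control replicate 1 kept 3 calls, where 2.69% of all genes were called. Leaving out control replicate 2, control replicate 3, stress replicate 1 or stress replicate 2 kept 1, Tnfsf14, where 1.33%, 2.27%, 2.67% and 1.14% of all genes were called. The median log2 fold change was -0.03 over the 30 genes, -0.08 over the 18 measured receptors and 0.40 over the 11 ligands, beside 0.00 (-0.0039) over all genes tested.

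The promoter windows of the 2 called genes that the RefSeq promoter table holds are shown first, because both genes rose with groups that did not overlap, and known regulators of immune genes bind such motifs. Each window runs from 250 bases before to 50 bases after an annotated start, read 5′ to 3′ on the gene's strand, in build GRCm38.p6. Capitals mark matches on either strand to the NF-kB motif, searched by that name, or to TGANTCA, the AP-1 motif. The Tnfsf14 window lies at chr17:57194132-57194431 on the minus strand, and the Tnfrsf9 windows, for 2 annotated starts, at chr4:150919905-150920204 and chr4:150927749-150928048 on the plus strand.
Tnfsf14: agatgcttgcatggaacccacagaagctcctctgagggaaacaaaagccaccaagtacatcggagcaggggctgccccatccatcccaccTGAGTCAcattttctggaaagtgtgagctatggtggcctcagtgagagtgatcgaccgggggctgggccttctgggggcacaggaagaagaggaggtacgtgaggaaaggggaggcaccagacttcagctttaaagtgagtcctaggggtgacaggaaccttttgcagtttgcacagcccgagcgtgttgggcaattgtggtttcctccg
Tnfrsf9 upstream start: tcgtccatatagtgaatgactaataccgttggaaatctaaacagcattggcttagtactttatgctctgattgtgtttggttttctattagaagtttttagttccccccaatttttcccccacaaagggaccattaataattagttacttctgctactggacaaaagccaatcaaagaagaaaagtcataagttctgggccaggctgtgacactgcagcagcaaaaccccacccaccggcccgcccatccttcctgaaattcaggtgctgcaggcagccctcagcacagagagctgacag
Tnfrsf9 downstream start: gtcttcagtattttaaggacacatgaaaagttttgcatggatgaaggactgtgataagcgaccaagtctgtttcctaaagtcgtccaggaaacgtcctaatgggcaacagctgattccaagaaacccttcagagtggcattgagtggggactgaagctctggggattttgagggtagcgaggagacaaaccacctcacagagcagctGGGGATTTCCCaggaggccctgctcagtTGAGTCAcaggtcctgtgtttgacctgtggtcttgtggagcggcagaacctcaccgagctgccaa
The Tnfsf14 window held 1 TGANTCA match, from 160 to 154 bases before the start, and no NF-kB match. At the downstream start of Tnfrsf9, 2 overlapping NF-kB matches spanned 43 to 33 bases before the start, and a TGANTCA match stood 15 to 9 bases before it. The upstream start of Tnfrsf9 had neither motif, and the 2 motifs did not overlap each other in any of these windows. Of all 32851 promoter windows in the table, 8.46% held the NF-kB motif and 7.81% held TGANTCA. Among the 28 windows of the 24 genes of the family that the table holds, 3 had the NF-kB motif (Tnfrsf8, Tnfrsf9 and Tnfrsf25) and 6 had TGANTCA (Tnfrsf8, Tnfrsf9, Tnfsf13, both windows of Tnfsf13b, and Tnfsf14). The 2 windows of Tnfsf13b overlap and hold the same TGANTCA site, so that site is counted in both. GATAA and CANGTG were also searched and are not marked in the sequences. They were in 4 and 17 of the 28 windows, against 25.4% and 44.9% of all windows. Each printed window held CANGTG, which in Tnfsf14 overlapped the TGANTCA match. Binding was not measured, and a match is a description of the letters only.

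Levels between genes are compared per kilobase of annotated exon. On that scale the receptor genes Tnfrsf1b (67.7 ± 3.83 CPM per kilobase in the controls), Tnfrsf1a (31.4 ± 3.01), Tnfrsf21 (23.6 ± 2.74) and Tnfrsf9 (20.9 ± 3.12) stood highest. The highest ligands were Tnfsf9 at 15.6 ± 2.77 and Tnfsf14 at 11.6 ± 0.57. Tnfrsf21 and Tnfrsf9 lay within their spread of each other in the controls, and so did Tnfsf14 and the receptor Tnfrsf13b (12.6 ± 0.617). After prenatal stress Tnfsf14 stood at 21.3 ± 0.969, near Tnfsf9 at 21.4 ± 3.33. At the low end, Tnfsf13b, Tnfrsf19, Tnfsf8 and Tnfrsf8 were below 0.1 in the controls, between 0.0466 and 0.0894.

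**Figure D1:**
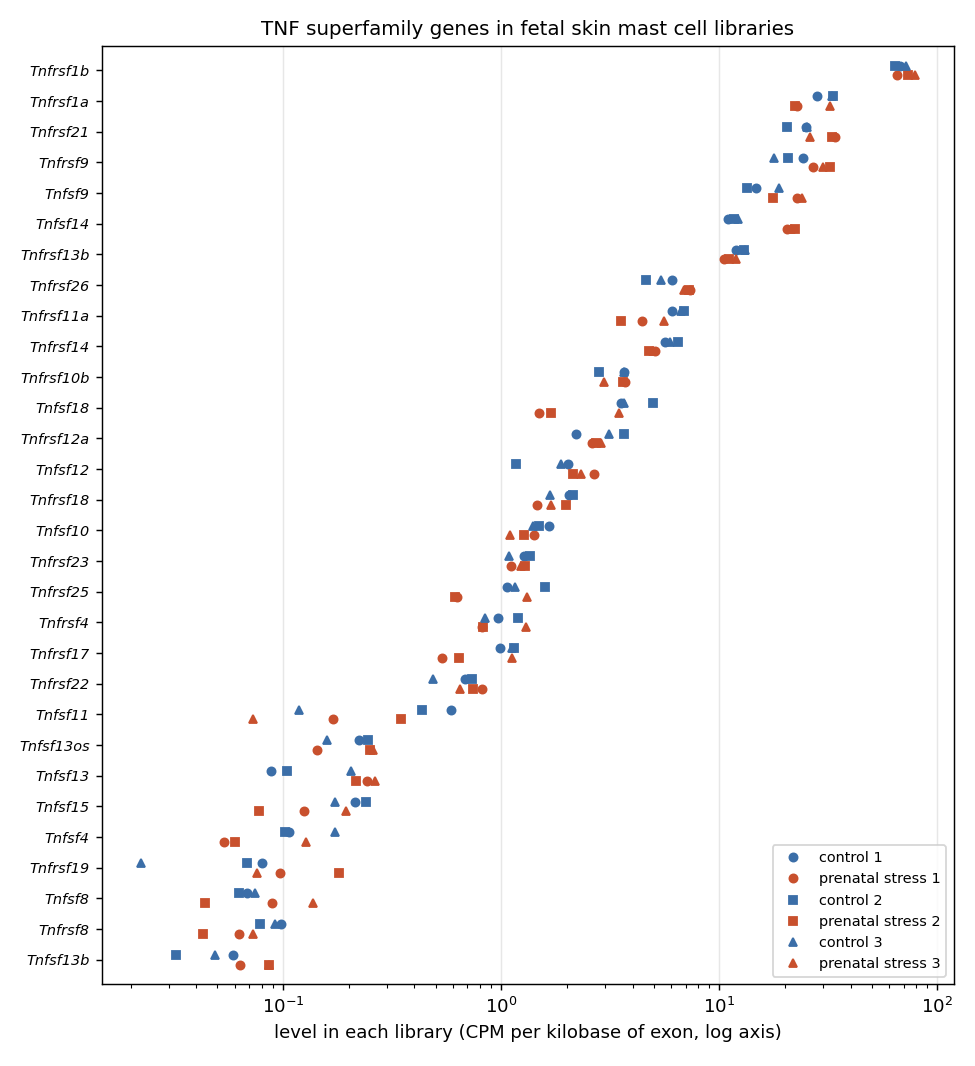
Level of the 30 measured genes in each library, in CPM per kilobase of exon on a log axis, with control libraries in blue, prenatal stress libraries in red and marker shapes for the replicate numbers. Tnfrsf1b is at the top with 67.7 in the controls, and Tnfsf14 separates the groups clearly, at 11.6 and 21.3 CPM per kilobase.

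Tnfsf14 encodes LIGHT, a ligand of the herpesvirus entry mediator HVEM and of the lymphotoxin beta receptor. Its level was 20.3, 21.6 and 22.4 CPM in the controls, against 37.6, 41.2 and 39.3 in the stress libraries; here and below, libraries are listed in the order of their replicate numbers. Every stress library lay far above every control, and the spread within each group was small. The rise was 1.84-fold (log2 fold change 0.88 ± 0.07, edgeR adjusted p = 7.56e-04). It passed in all 15 alternative fits, with log2 fold changes from 0.76 to 0.91. Of its receptors, Tnfrsf14, which encodes HVEM, was at 8.08, 9.29 and 8.51 CPM in the controls, against 7.30, 6.85 and 7.16 in the stress libraries. The stress libraries were all below the controls, by a small margin, and the difference did not pass (-0.28 ± 0.09, edgeR adjusted p = 0.097). Ltbr, the lymphotoxin beta receptor, was at 20.1, 22.0 and 23.2 CPM in the controls, against 14.2, 16.3 and 21.6 after stress, and did not pass (-0.33 ± 0.14, edgeR adjusted p = 0.191). Its stress replicate 3 lay within the control range, and without that library it was called lower (edgeR adjusted p = 0.00564).

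Tnfrsf9 encodes 4-1BB (CD137), a costimulatory receptor that recruits TRAF adaptors. It was at 65.6, 56.2 and 48.6 CPM in the controls, against 73.2, 87.8 and 81.1 in the stress libraries. The groups did not overlap, with control replicate 1 closest to the stress libraries. The log2 fold change was 0.51 ± 0.11 (edgeR adjusted p = 0.0335). Leaving out control replicate 2, control replicate 3, stress replicate 1 or stress replicate 2 ended the call (edgeR adjusted p = 0.145, 0.0855, 0.0566 and 0.13). So did the replicate block (0.0509) and the macrophage covariate described below (0.0554).

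The ligand of 4-1BB is encoded by Tnfsf9. It was at 19.0, 17.3 and 24.2 CPM in the controls, against 29.3, 22.8 and 30.9 in the stress libraries. Stress replicate 2 fell below control replicate 3, so the groups overlapped. The difference of 0.46 ± 0.14 on the log2 scale did not pass (edgeR adjusted p = 0.0937). It passed with DESeq2 (0.46, adjusted p = 0.0192), without a filter (0.45, 0.00891), with the replicate block (0.46, 0.0324) and with the macrophage covariate (0.60, 0.0378); over all alternatives its adjusted p ran up to 0.298. A gene on the opposite strand covers 14.9% of its exon length in GENCODE M21, and whether the counting used strand is not given in the sources used here.

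Tnfrsf26 is a mouse receptor gene that lies next to the decoy receptor genes Tnfrsf22 and Tnfrsf23 in RefSeq's gene order on chromosome 7. It was at 19.4, 14.8 and 17.4 CPM in the controls, against 23.6, 23.3 and 22.1 in the stress libraries. All stress libraries were above all controls and close to each other. It rose by 0.42 ± 0.10 on the log2 scale (edgeR adjusted p = 0.0429). As for Tnfrsf9, leaving out control replicate 2, control replicate 3, stress replicate 1 or stress replicate 2 ended the call (edgeR adjusted p = 0.126, 0.114, 0.101 and 0.142). It also ended with the block (0.0531), library totals (0.0586) or the covariate (0.0956). Its neighbours Tnfrsf22 and Tnfrsf23, which bind TRAIL without a death domain, had 0.21 ± 0.18 and -0.03 ± 0.12 and did not pass. They share 20.8% and 13.1% of their transcript stretches of 75 bases with other genes, mainly each other, so their counts are uncertain. No such stretch of Tnfrsf26 occurs in another gene, and 3.33% of its exon length lies under a gene on the opposite strand.

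The libraries differed in transcripts of macrophages, the cells that the sort was set to leave out. Of 16 macrophage and monocyte markers tested, 1 rose (Cd68) and 1 fell (Cx3cr1). The summed level of the 16 ran from 9203 to 10550 CPM in the controls. It was 7392, 6757 and 10890 after stress, so stress replicate 3 was above the controls and the other stress libraries were below them. None of the 16 was at 0. Mast cell markers were far higher in sum, at 58880 to 71200 CPM in the controls and 85810 to 103600 after stress. Of these 12 markers, 8 were called higher and 0 lower (edgeR), where 4.34% of all genes were higher and 1.85% lower. The largest were Cpa3 and Cma1, with control means of 24736 and 15205 CPM. Gene by gene the levels overlapped: the macrophage genes F13a1 (2599) and Mrc1 (2295) stood above the mast cell genes Mcpt4 (1620) and Gata2 (1386) in the controls. These 6 genes are named after their values were seen. Melanocyte markers, in cells that also carry KIT, rose in 4 of 5 genes, with sums of 13.2 to 19.0 CPM in the controls and 27.2 to 66.9 after stress, and none was at 0. Single libraries stood apart in other lists, with no gene of these lists called: the fibroblast sum was 204.6 CPM in stress replicate 2 and 76.8 to 99.0 elsewhere, the keratinocyte sum 9.995 in stress replicate 1 and 0.989 to 1.63 elsewhere, and the neutrophil sum 98.4 in control replicate 2 and 7.51 to 39.2 elsewhere. The part of these shifts in the values of the family was not tested. In bulk RNA such as this, fewer cells of a type and less RNA per cell cannot be told apart.

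Several genes of the family lay low in stress replicates 1 and 2 and at or nearer the control level in stress replicate 3. That library had the highest macrophage sum, while its mean log2 marker level (8.20) lay within the controls (8.00 to 8.21). Tnfrsf1a, the death-domain receptor TNFR1, was at 72.3, 86.2 and 85.4 CPM in the controls, against 58.6, 57.5 and 83.0 in the stress libraries. The first 2 stress libraries were below every control and the last was among them (-0.29 ± 0.14, edgeR adjusted p = 0.23). Tnfrsf11a, which encodes RANK, was at 36.2, 41.4 and 40.1 in the controls, against 26.4, 21.2 and 33.4 after stress. Here all stress libraries were below the controls, stress replicate 3 by the least (-0.54 ± 0.14, edgeR adjusted p = 0.0586), and the gene passed with DESeq2 (0.00316), without a filter (0.00104) and with library totals (0.0313). Tnfrsf25, the death-domain receptor DR3, was at 2.42, 3.62 and 2.64 in the controls, against 1.43, 1.39 and 2.99 after stress (-0.57 ± 0.30, edgeR adjusted p = 0.276). It too was low in 2 stress libraries only. Tnfsf18, the ligand of GITR, was at 7.31, 10.3 and 7.52 in the controls, against 3.07, 3.49 and 7.14 after stress. Its stress replicate 3 was just under the lowest control (-0.87 ± 0.29, edgeR adjusted p = 0.111), and the gene passed without a filter (0.00495).

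Without stress replicate 3, 9 of the 30 genes passed, 4 higher and 5 lower, while 15.4% of all genes tested did (7.76% higher and 7.69% lower). The 5 lower ones were Tnfrsf1a (-0.49, edgeR adjusted p = 0.00442), Tnfrsf11a (-0.72, 0.00215), Tnfrsf13b (-0.23, 0.0466), Tnfrsf25 (-1.04, 0.0114) and Tnfsf18 (-1.35, 0.00157). The 4 higher ones were Tnfsf14, Tnfrsf9, Tnfrsf26 and Tnfrsf21. With the mean log2 level of the macrophage markers as a covariate and all 6 libraries kept, 2 genes passed, Tnfsf14 (0.89, edgeR adjusted p = 2.72e-04) and Tnfsf9, both higher, where 4.24% of all genes did (3.01% higher and 1.23% lower). In that fit Tnfrsf1a was at -0.05 (edgeR adjusted p = 0.659), Tnfrsf25 at -0.17 (0.691), Tnfsf18 at -0.48 (0.155) and Tnfrsf11a at -0.31 (0.0638). The marker mean (log2 CPM) was 8.00, 8.19 and 8.21 in the controls, against 7.83, 7.75 and 8.20 after stress, so it moves with the group in 2 of the 3 stress libraries. For that reason the fit cannot tell macrophage RNA and prenatal stress apart. The part of macrophage RNA in the values without the covariate was not tested.

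Over the 30 genes, stress replicates 1 and 2 were both below all controls in 11. In 7 of these 11 (63.6%), stress replicate 3 was within or above the control range, against 41.3% of the 4136 genes of that kind among all tested. The 7 were Tnfrsf1a, Tnfrsf4, Tnfrsf13b, Tnfrsf17, Tnfrsf25, Tnfsf4 and Tnfsf15. Both stress replicates were above all controls in 9 genes, and stress replicate 3 was not in 2 of them, Tnfrsf19 and Tnfrsf22 (22.2%, against 31.4% of 3906 genes). The groups did not overlap at all in 11 of the 30, 7 higher and 4 lower, where 30.6% of all genes tested had groups apart, 16.0% higher and 14.5% lower.

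**Figure D2:**
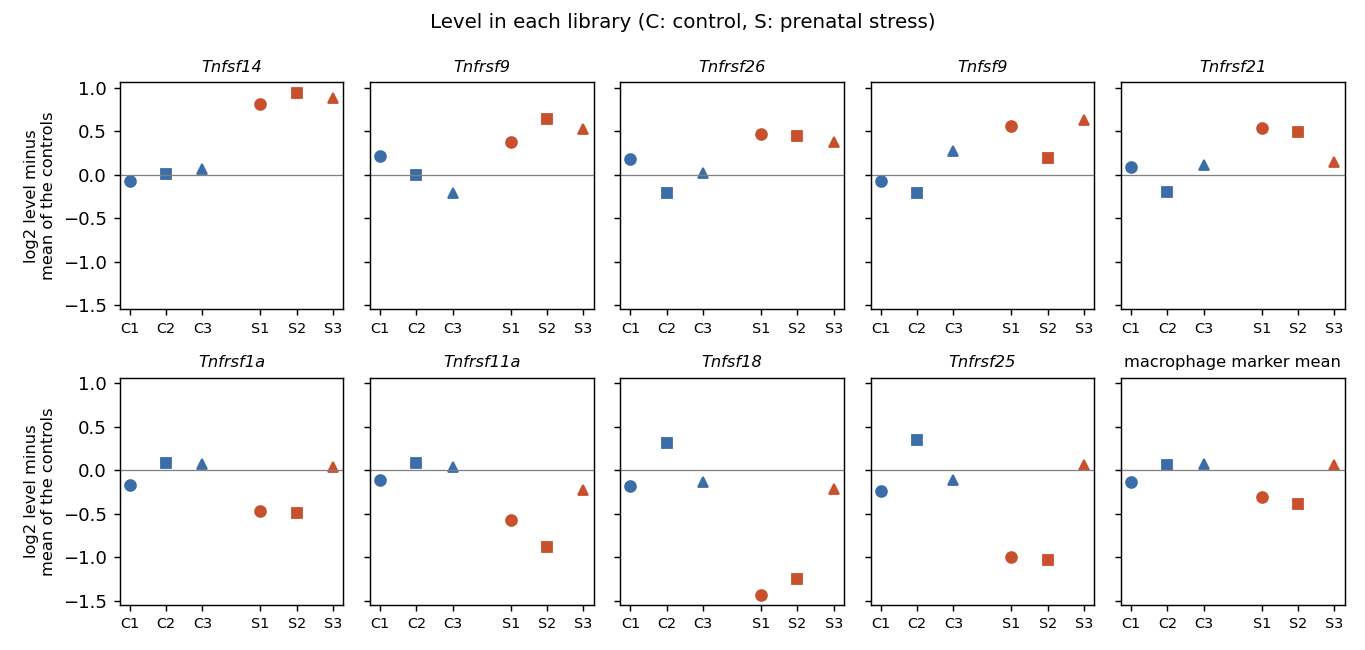
Log2 level of 9 genes of the family in each library, and the mean of the macrophage markers, each minus the mean of the 3 control libraries (C1 to C3 controls, S1 to S3 prenatal stress). The 9 genes were chosen with their values known. Tnfsf14 is high in all stress libraries, while Tnfrsf1a, Tnfsf18 and Tnfrsf25 are low in S1 and S2 and close to the controls in S3. Among all genes tested, 4136 were below all controls in S1 and S2, and 41.3% of these were not below them in S3. The macrophage mean is also lower in S1 and S2, and the part of macrophage RNA in these genes was not tested.

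The most abundant receptor gene was Tnfrsf1b, which encodes TNFR2, the TNF receptor without a death domain. It was at 256, 245 and 274 CPM in the controls, against 250, 279 and 301 in the stress libraries. The groups overlapped (0.10 ± 0.08, edgeR adjusted p = 0.471), and with library totals as the only scaling the sign turned (-0.02). Tnf itself, the ligand of both TNF receptors, was at 113, 113 and 111 CPM in the controls, against 151, 125 and 148 after stress. All stress libraries were higher and Tnf rose by 0.33 ± 0.08 on the log2 scale (edgeR adjusted p = 0.0408). That call ended without any 1 control (0.105 to 0.145) or without stress replicate 1 (0.0972), and in 2 other fits, library totals (0.113) and the block (0.0642).

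Tnfrsf21 encodes DR6, a death-domain receptor. It was at 102.8, 83.9 and 104.1 CPM in the controls, against 139.8, 135.2 and 106.8 in the stress libraries. The groups did not overlap, but stress replicate 3 was only just above the highest control (0.39 ± 0.12, edgeR adjusted p = 0.0797). Without stress replicate 3 it passed (0.50, edgeR adjusted p = 0.00525), as it did with DESeq2 (0.40, adjusted p = 0.0131), and with the macrophage covariate it did not (0.22, 0.224).

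TRAIL, encoded by Tnfsf10, and its death receptor DR5, encoded by Tnfrsf10b, did not pass. Tnfsf10 was at 8.69, 7.81 and 7.36 CPM in the controls, against 7.48, 6.70 and 5.76 after stress, with overlapping groups (-0.26 ± 0.12, edgeR adjusted p = 0.209). Tnfrsf10b was at 19.97, 15.3 and 19.97 in the controls, against 20.2, 19.8 and 16.2 after stress, with no shift visible between the groups (0.02 ± 0.12, edgeR adjusted p = 0.934). The sign of the Tnfrsf10b value turned under 5 of the 15 alternative fits, library totals among them.

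The B cell survival ligands BAFF (Tnfsf13b) and APRIL (Tnfsf13) act through TACI (Tnfrsf13b), BCMA (Tnfrsf17) and the BAFF receptor (Tnfrsf13c). TACI was the receptor with a clear level, at 33.9, 36.7 and 37.1 CPM in the controls, against 29.9, 31.3 and 33.9 after stress. The stress libraries lay lower but stress replicate 3 was just above the lowest control (-0.18 ± 0.07, edgeR adjusted p = 0.154). The B cell genes Cd79a, Ms4a1 and Pax5 were each below 1 CPM in every library, while Cd79b ranged from 14.1 to 16.7 CPM among controls and from 8.81 to 12.9 among stress libraries and did not pass (edgeR adjusted p = 0.0559); the part of B cells in the TACI level was not tested. BCMA had 22 to 62 counts per library and did not pass (-0.50 ± 0.30). Tnfsf13b had 13 to 33 counts per library (0.74 ± 0.31, edgeR adjusted p = 0.18) and Tnfsf13 had 10 to 24 (0.89 ± 0.38, edgeR adjusted p = 0.19). Both ligands were higher in each stress library than in each control, at a depth where a few counts decide. Tnfsf13 shares 55.8% of its transcript stretches of 75 bases with Tnfsfm13, the annotated read-through gene over Tnfsf12 and Tnfsf13, and its value is uncertain.

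TWEAK, encoded by Tnfsf12, shares 45.8% of such stretches with the same read-through gene, so its value is also uncertain. It was at 3.07, 1.77 and 2.85 CPM in the controls, against 4.05, 3.25 and 3.51 after stress. The groups did not overlap and the difference did not pass (0.48 ± 0.21, edgeR adjusted p = 0.191). Its receptor FN14, Tnfrsf12a, was at 4.25, 7.09 and 6.06 in the controls, against 5.06, 5.23 and 5.54 after stress, all within the control range (-0.13 ± 0.17, edgeR adjusted p = 0.689).

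The remaining costimulatory pairs were scarce. OX40 (Tnfrsf4) had 56 to 101 counts per library and GITR (Tnfrsf18) was at 2.98 ± 0.375 and 2.61 ± 0.393 CPM, and neither passed (-0.02 ± 0.24 and -0.19 ± 0.16). GITR has 27.2% of its exon length under a gene on the opposite strand. OX40 ligand (Tnfsf4), CD30 ligand (Tnfsf8) and CD30 (Tnfrsf8) had 5 to 29 counts per library, and none passed, with log2 fold changes of -0.62 ± 0.45, 0.40 ± 0.42 and -0.58 ± 0.33. TL1A (Tnfsf15), the ligand of DR3, had 14 to 55 counts (-0.66 ± 0.34). TROY (Tnfrsf19) had 6 to 46 counts (1.02 ± 0.48) and was highest in stress replicate 2, at 0.854 CPM against 0.106 to 0.456 in the other libraries; that library also had the highest fibroblast sum, whose part was not tested. Tnfsf13os had 8 to 19 counts (0.06 ± 0.37). The sign of the value turned in 4 of the alternative fits for Tnfsf13os, library totals among them, in 4 for Tnfrsf4 and in 1 for Tnfsf8. The SEs of these 6 genes after GITR were 0.33 to 0.48, against 0.11 for Tnfrsf9, whose difference was 0.51. Whether a difference of that size could be detected in them was not tested.

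RANK ligand, Tnfsf11, had 101, 57 and 15 counts in the controls, against 19, 42 and 9 in the stress libraries. Control replicates 1 and 2 were the highest and the groups overlapped (-0.97 ± 0.62, edgeR adjusted p = 0.369). The T cell genes Cd3g and Il2ra were also highest in control replicate 1. Cd3g was at 7.54, 2.47 and 1.44 CPM in the controls, against 1.29, 1.02 and 1.03 after stress. Il2ra was at 26.0, 6.97 and 0.828, against 0.139 to 0.27. Of the same list, Trdc, Thy1, Cd3d and Cd3e were also highest in control replicate 1, with Trdc at 2.27, 0.578 and 0.264 CPM in the controls. Trac, a T cell receptor gene of the list, was lowest of the controls in control replicate 1, at 0.339 CPM against 0.595 and 0.511. Il7r and Nkg7 were highest in stress replicate 2. These genes are named after their values were seen. The summed level of the 12 T and innate lymphoid markers was 58.2 to 109 CPM in the controls and 86.9 to 106 after stress, and Ncr1 was at 0 in all libraries. Of the 9 tested, Il7r rose and Il2ra fell, and the median log2 fold change was -0.60. Il7r alone made up 18.1 to 26.1 CPM of the control sums and 48.8 to 58.1 CPM of the stress sums. The sums therefore do not show the lower values of some members, while Rora (log2 fold change 0.02) and Nkg7 (0.14) were not lower. The part of these cells in the Tnfsf11 level was not tested.

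**Figure D3:**
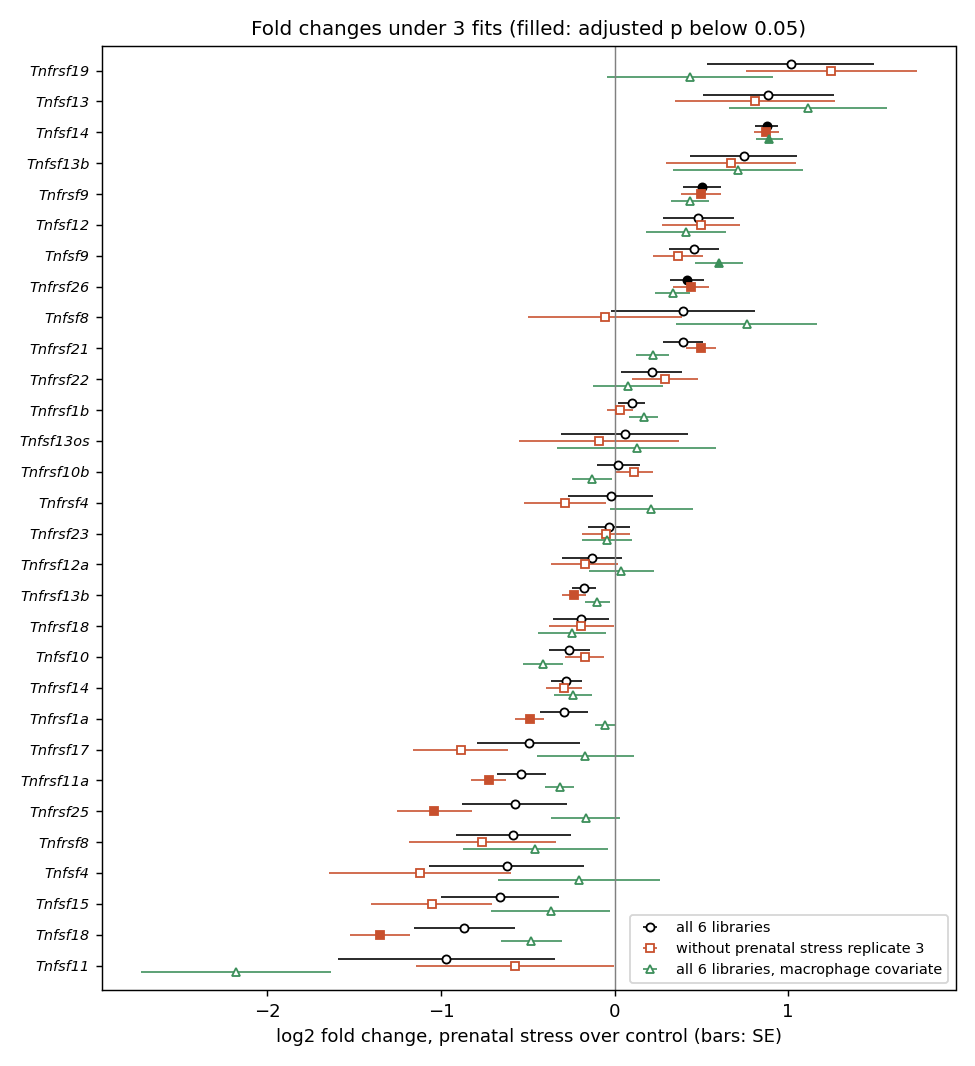
Log2 fold change of the 30 measured genes, prenatal stress over control, with SE bars, under 3 edgeR fits (all libraries, without prenatal stress replicate 3, and with the macrophage covariate); filled markers passed. Tnfsf14 passed under all 3 at 0.87 to 0.89, while Tnfsf18 moved from -0.87 to -1.35 without that library and to -0.48 with the covariate.

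Some genes of the family are neighbours in RefSeq's order of protein-coding genes. Tnfsf9, Cd70 and Tnfsf14 follow each other on chromosome 17 with no other coding gene between them, and had log2 fold changes of 0.46 and 0.88 around Cd70, which had 3 counts in all. Tnfsf4, Tnfsf18 and Fasl follow each other on chromosome 1, with values of -0.62 and -0.87 for the first 2 and 72 counts in all for Fasl, 49 of them in control replicate 1. On chromosome 4, Tnfrsf1b and Tnfrsf8 had 0.10 and -0.58, Tnfrsf4 and Tnfrsf18 had -0.02 and -0.19, and Tnfsf15 and Tnfsf8 had -0.66 and 0.40. Of these, 1 gene, Tnfsf14, was called.

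The superfamily genes that carry other symbols were read from the same fit. Of 7 such ligands 4 were tested and 1 rose, which was Tnf; Lta and Ltb, the lymphotoxins, were at 0.82 and 1.84 CPM in the controls and 0.83 and 1.93 after stress. The median log2 fold change of the 4 was 0.20. Of 8 such receptors 6 were tested and 0 were called (edgeR; median 0.03). The most expressed were Ltbr and Relt, the latter at 17.7 ± 0.468 and 16.5 ± 0.936 CPM. Cd27, a lymphocyte receptor, had 175, 57 and 16 counts in the controls and 6 to 21 after stress (-2.44 ± 0.73, edgeR adjusted p = 0.0841), again highest in control replicate 1. Cd27 was called lower with DESeq2, without a filter and without control replicate 3 (edgeR adjusted p = 0.0415 in the last). With the macrophage covariate Cd27 and Cd40 were called. Both genes are named after their values were seen.

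Downstream, most adaptors and kinases next to the receptors did not pass. Of 27 tested, 1 rose, 1 fell and 25 did not pass, with a median log2 fold change of 0.02. Among those that did not pass, DESeq2 called Traf1, Birc3 and Tank higher, where it called 7.95% of all genes higher. Traf1 (0.39 ± 0.11, edgeR adjusted p = 0.076) was also called without a filter and without stress replicate 1 (edgeR adjusted p = 0.0426 in the latter). Traf1 and Tank are named after their values were seen. Traf5, an adaptor of several TRAF-binding receptors, rose from 11.6 ± 0.092 to 14.9 ± 0.366 CPM (0.36 ± 0.07, edgeR adjusted p = 0.0211). Traf4, a TRAF family gene with roles in tissue development, fell from 6.53 ± 0.691 to 4.14 ± 0.188 (-0.66 ± 0.11, edgeR adjusted p = 0.0166). For both genes the groups did not overlap. The Traf5 call ended in 5 of the 6 fits that left out 1 library (all but that without stress replicate 3; edgeR adjusted p up to 0.0879), with library totals (0.059) and with the block (0.0554), and the Traf4 call ended in 2, without control replicate 2 (0.0728) or stress replicate 2 (0.0619). Of the 8 genes of the alternative NF-kB pathway, which the lymphotoxin beta receptor, RANK and the BAFF receptor are known to use, 0 were called (median 0.09). Its most expressed genes were Nfkb2, at 245 ± 2.35 and 262 ± 31.6 CPM, and Birc3, at 205 ± 7.16 and 235 ± 9.31 (edgeR adjusted p = 0.0784). Map3k14 was lower in every stress library than in every control (-0.23 ± 0.08, edgeR adjusted p = 0.0973), while Chuk, Birc2 and Birc3 were higher in every one. Map3k14 was called lower with library totals and without stress replicate 3 (edgeR adjusted p = 0.0241 in the latter). Map3k14, Chuk and Birc2 are named after their values were seen.

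Among 14 genes of canonical NF-kB signalling, 4 rose, none fell, and 10 missed the threshold (median 0.07). Tnip2, an A20-binding inhibitor, was lower in every stress library than in every control and did not pass (-0.20 ± 0.08, edgeR adjusted p = 0.149), but it was called lower with library totals and without stress replicate 3 (edgeR adjusted p = 0.0301 in the latter); it is named after its value was seen. The 4 encode inhibitors or inducible regulators that act back on the pathway. Nfkbia, the inhibitor IkB alpha, was at 468, 408 and 504.5 CPM in the controls, against 764, 759 and 589.9 in the stress libraries. All stress libraries were higher, stress replicate 3 by the least (0.61 ± 0.11, edgeR adjusted p = 0.0214). Tnfaip3, the ubiquitin-editing brake A20, rose by 0.54 ± 0.13, Nfkbiz by 0.38 ± 0.08 and Nfkbib by 0.48 ± 0.11 on the log2 scale (edgeR adjusted p = 0.0475, 0.0375 and 0.0443). None of these 4 calls held in every fit that left out 1 library, where adjusted p reached 0.091 for Nfkbia, 0.17 for Tnfaip3, 0.132 for Nfkbiz and 0.157 for Nfkbib. With the macrophage covariate Nfkbia (0.45, edgeR adjusted p = 0.0382) and Nfkbib (0.64, 0.00576) passed, and Nfkbiz and Tnfaip3 did not (0.107 and 0.114). With library totals Nfkbia passed (0.0239) and Nfkbib (0.0632), Nfkbiz (0.0507) and Tnfaip3 (0.0503) did not, and with the block Nfkbiz (0.0708) and Tnfaip3 (0.0568) did not. Of 5 genes for enzymes that shed or process ligands and receptors, 1 rose, Furin, a proprotein convertase, from 761 ± 82.5 to 1127 ± 51.4 CPM (0.57 ± 0.09, edgeR adjusted p = 0.0118). Its call ended only without stress replicate 2 among the fits that left out 1 library (0.0513). Adam17, the main TNF sheddase, was at 141.7, 155.9 and 145.8 CPM in the controls, against 119.4, 116.4 and 151.7 after stress, and did not pass (-0.19 ± 0.10, edgeR adjusted p = 0.264). Without stress replicate 3 Adam17 and Rhbdf2, an adaptor of ADAM17, were called lower (edgeR adjusted p = 0.0078 and 0.0168); both are named after their values were seen. In all, 8 of the 60 genes tested from these lists were called, 7 higher and 1 lower, beside 6.19% of all genes. The direction depended on the scaling and on stress replicate 3: with library totals 2 were higher (Furin and Nfkbia) and 4 lower (Map3k14, Map3k5, Tnip2 and Traf4), and without stress replicate 3, 7 were higher and 6 lower.

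**Figure D4:**
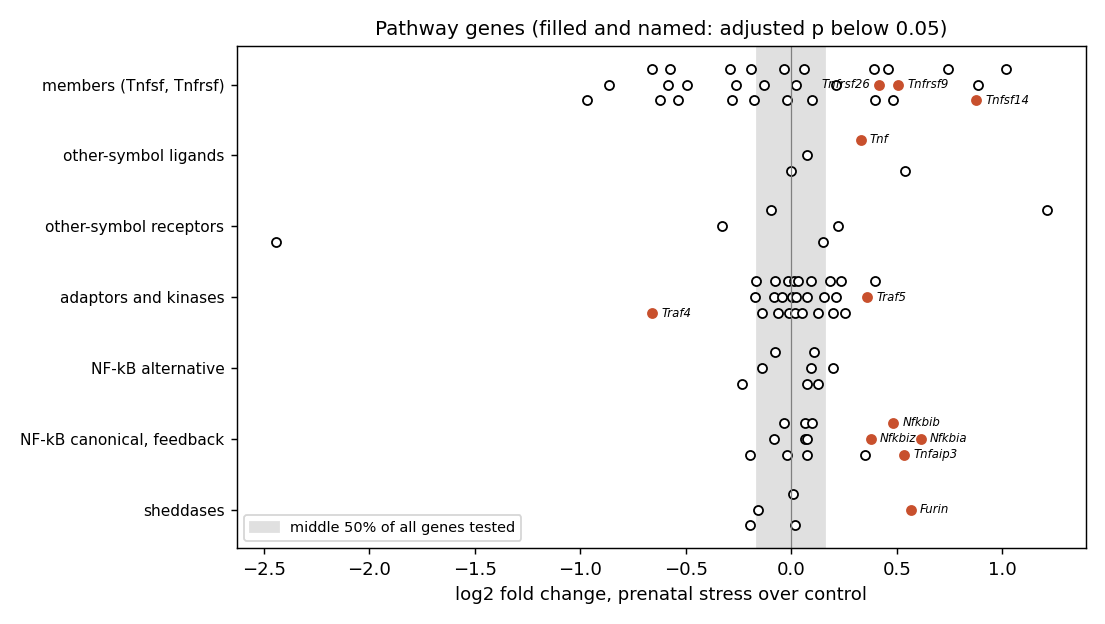
Log2 fold change, prenatal stress over control, of each tested gene of the family and of the 6 pathway lists, with called genes filled and named and the middle 50% of all genes tested (-0.16 to 0.16) shaded. The adaptors centre on a median of 0.02, and the called NF-kB genes lie between 0.38 and 0.61.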

How the data were processed

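Polyadenylated RNA of sorted fetal skin mast cells was sequenced in 6 stranded libraries, 3 per group. The authors deposited raw counts per gene symbol, 1 table per library, not normalized. Per the submitters' processing notes, the tools were FastQC, STAR 2.4 and HTSeq 0.9.1, and the builds GRCm39 and mm10 both appear without a role. The strand setting and annotation release were not given in these sources. Libraries held 51710555 to 74735139 counts in genes, 79.7% to 81.4% of all reads tallied; 5 rows that name no gene were left out. Replicate libraries differed by more than sampling noise (chi-square per degree of freedom 9.78 to 41.9).

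Genes were filtered with filterByExpr (minimum count 10; 16716 kept), scaled with TMM factors and tested with edgeR 4.0.16's quasi-likelihood test (R 4.3.3), adjusted by Benjamini-Hochberg over all of them at 0.05. Biological variation between pools had a common coefficient of 10.4%. Members, gene lists and tests were chosen with earlier results of these data known, so the lists got counts and medians and no test. Full values were given for members that were called or reached 5 CPM in a group (Tnfrsf25, Tnfsf11 and Tnfsf12 were added after their values were seen); of each pathway list, up to 4 called genes or, where 0 were called, the 2 most expressed were named. The macrophage covariate was the mean log2 CPM (prior count 2) of 16 markers. Alternatives were RLE, upper-quartile and total-count scaling, no filter, a stricter filter (10 counts in 3 libraries and a mean of 1 CPM), DESeq2 1.42.0, limma-voom (limma 3.58.1), the replicate block, the covariate and each library left out. Replicate numbers are not said in the labels to mark shared litters, so the block was no part of the main design. Exon lengths, overlaps and shared 75-base stretches came from GENCODE M21 (GRCm38), to which 32 of 32 symbols matched; promoters and gene order came from RefSeq tables of GRCm38.p6. One marker gene of another cell type is not reported here.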

Additional observations from a re-analysis of the deposited data

How the results depend on the processing

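The count of 3 called genes of the family was the same, with the same 3 genes, under RLE and upper-quartile factors, the stricter filter and limma-voom. It was 5 with library totals as the only scaling (2 higher and 3 lower), 7 without a filter (5 and 2) and 6 with DESeq2 (5 and 1), and it ran from 1 to 9 over the fits that left out 1 library. It was 1 without control replicate 2, control replicate 3, stress replicate 1 or stress replicate 2, where Tnfsf14 was the gene called, and 9 without stress replicate 3. Over all genes, the 1035 calls of 16716 became 2085 with library totals, 1933 of 29276 without a filter, 1876 of 15080 with DESeq2 and 622 with the replicate block, and 196 to 2647 when 1 library was left out. With library totals 26.5% of the calls were higher, against 70.0% with TMM, and the median of all genes moved to -0.119 on the log2 scale. Of the pathway genes 8 were called, 7 higher and 1 lower. The count was 6 with library totals (2 higher and 4 lower), 10 without a filter (8 and 2), 12 with DESeq2 (10 and 2), 4 with the replicate block and 1 to 13 when 1 library was left out (7 higher and 6 lower without stress replicate 3). No called gene of the family, and no pathway gene called, reversed under any of the 15 alternatives. The cause of these shifts was not tested.

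With the replicate number as a block, 2 genes of the family were called, Tnfsf14 and Tnfsf9. Deviations of same-numbered libraries from their group means correlated at 0.0954, -0.0188 and 0.0684 over genes. For differently numbered libraries the values ran from -0.2085 to 0.1356. With 3 libraries in a group, these values cannot show whether same-numbered pools share a litter or a batch. Genes with fewer than about 30 counts per library had SEs above 0.3.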
